A study of Mus musculus with 6 samples.

Results

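The genes described here are 35 genes of DNA replication and S phase: origin licensing and helicase genes (13), polymerase, clamp and fork genes (12), nucleotide supply genes (4), and E2F and chromatin genes (6). They were chosen by symbol, without using their measured values, though earlier results of these data were known. All 35 were found among the 23366 genes in the deposited table. RNA was sequenced from SC4, a single line of mouse Schwann cells that came from a schwannoma (a nerve sheath tumour). The cells in every group lack Nf2, which encodes the tumour suppressor merlin, so the comparison has no group with intact Nf2. Cultures received a control siRNA (3 libraries, numbered 1 to 3) or a pool of siRNAs against YAP (3 libraries, numbered likewise), and RNA was taken 48 hours after transfection. The question addressed was which genes depend on YAP, the transcriptional co-activator encoded by Yap1. Whether the libraries of a group stem from different cultures is not in the labels, and p-values therefore rest on a spread between libraries that may be technical.

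Before S phase, the origin recognition complex, CDC6 and CDT1 load the MCM2 to MCM7 helicase onto replication origins. At the start of S phase GINS and MCM10 help to activate the helicase, DNA polymerase alpha with primase makes the primers, and polymerases delta and epsilon extend them with the sliding clamp PCNA, which the RFC clamp loader places on DNA. Many of these genes are transcribed at the G1/S boundary by E2F factors, and YAP with its TEAD partners has been linked to proliferation in Schwann cells and in cells that lack Nf2.

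A recognised E2F element lies close to the start of many such genes, and 5 stretches that hold one are shown because their genes come up again below. They belong to Pola1, Cdc6, and members of the origin recognition complex and the helicase. Pola1 was the only member that passed the test on all 6 libraries, and Cdc6 had the most negative value. Each stretch runs 5′ to 3′ in the direction of the gene, with the match in capitals, in mouse build GRCm38.p6 (RefSeq promoters).
Pola1 (chrX:93632275-93632304, minus strand): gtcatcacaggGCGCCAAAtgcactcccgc
Cdc6 (chr11:98908002-98908031, plus strand): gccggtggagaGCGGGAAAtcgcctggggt
Orc1 (chr4:108579416-108579445, plus strand): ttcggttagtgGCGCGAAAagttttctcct
Mcm6 (chr1:128359793-128359822, minus strand): gtatgcttttgGCGCGAAAagtgcgtgcgg
Mcm7 (chr5:138172030-138172059, minus strand): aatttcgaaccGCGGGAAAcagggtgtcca
The searched letters were TTTCCCGC, TTTCGCGC, TTTGCCGC and TTTGGCGC on either strand, and all 5 matches lie upstream of the annotated start, the nearest in Orc1 at 27 bases and the farthest in Mcm7 at 165 bases. The Mcm6 match shares letters with a second match on the other strand. Promoter windows of 300 bases, from 250 before to 50 after the start, were found for 29 of the 35 members, not for Mcm4, Gins1, Gins2, Pole, Tipin and Exo1. An E2F match was present in 12 of 29 members (41.4%), against 2.61% of 27025 genes with a window. The CCAAT box was found in 62.1% of members and in 41.1% of those genes, and the CHR element (TTTGAA) of late cell cycle genes in 10.3% of members and 20.2% of those genes. These matches are descriptions of letters in a window, in which 1 pair of matches to different motifs and 2 pairs of E2F matches overlapped. The gene that passed the test and the gene with the most negative value both carried an E2F match, as did members with values near 0 such as Mcm7.

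The libraries held between 18025132 and 60078880 reads in genes, and each member had between 90 and 12990 reads in each library. Yap1, the targeted gene, was lower in all treated libraries: it had 4749.6, 5732 and 4751 normalized counts in control replicates 1, 2 and 3, and 936, 571 and 475 after YAP siRNA. Its log2 fold change was −3.00 (SE 0.184 and limma adjusted p = 4.5e-04 in a fit that blocks on replicate number, so that libraries of the same number are compared, and 0.118 without the block). Among Schwann cell markers, Ngfr, Erbb3, Egr2, L1cam, Cdh19 and Foxd3 were present, while Sox10, S100b and Gfap never reached 20 normalized counts in a library. Of these, Erbb3 rose and Ngfr fell after YAP siRNA with the block. Epithelial markers were low, and 2 of 4 fell (Krt8 and Krt18). Summed over all 4 in each library, they had 267 to 498 in the control and 79.3 to 93.4 after YAP siRNA. The sums below are likewise over a whole list. Among macrophage and leukocyte markers Csf1r fell (sums over the list 284 to 323, and 197 to 252). Of 5 fibroblast markers Col1a1 and Dcn fell and Dpt rose (sums 111200 to 288839, and 97008 to 192242). No endothelial marker passed, with sums of 150.2 to 235 in the control and 186 to 271 after YAP siRNA. Tie1, Emr1, Cd3e, Lum and Cdh1 never reached 20. Of 2 RNAs used as signs of RNA quality, Neat1 rose with the block, from 6024, 6621 and 5809.8 normalized counts to 7639, 14925 and 16505. Malat1 was at 0.06. The sums of these 2 RNAs were 59769 to 102140 in the control and 62793 to 118751 after YAP siRNA. The part of these markers in the results below was not tested. In bulk RNA, fewer cells in S phase and less RNA per cell cannot be told apart.

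Most of the 35 genes kept close to their control level after YAP siRNA. With all 6 libraries in the fit, the polymerase alpha gene Pola1 was the single member to pass a test. All 35 passed the filter on low values, a mean of at least 10 normalized counts, among 12820 genes tested. Without pairing, limma called 0 members in either direction at an adjusted p under 0.05, where it called 0% of all genes tested. At an unadjusted p under 0.05 there were 1 member and 1558 genes in all, edgeR called 0 genes, and DESeq2 called 330 genes higher and 399 lower, among them Pola1 as the only member. In the blocked fit, limma called 1 member higher and 0 lower, where it called 8.32% of all genes higher and 8.96% lower. Those 1067 and 1149 genes became 12 and 18 without a mean-variance trend, 136 and 192 without the libraries numbered 2, 511 and 575 without those numbered 3, and 2823 and 2808 without those numbered 1. At an unadjusted p under 0.05 the blocked count was 5 members (Pola1, Cdc6, Dut, Rrm1 and E2f1) and 4406 genes in all. The words rose and fell are used here only of genes that passed with the block.

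The members' log2 fold changes ran from −0.42 to 0.54, on the log2(value + 1) scale used throughout. Their median was 0.014, beside 0.009 over all genes tested, with 22 members above 0 and 13 below. The median size regardless of sign was 0.13 for members and 0.24 for all genes. A change of less than 0.3 either way was seen in 31 members (88.6%), beside 58.4% of all genes and 78.7% of the 47 other replication genes described below. With the block, the 95% interval of 33 members (94.3%) lay within 1.5-fold of the control in either direction, beside 49.0% of all genes and 72.3% of those 47. Members had control means from 438 (Gins1) to 8065 (Rrm1), while all genes include any with a mean of at least 10. Genes were not matched for level in these comparisons. Without the block the interval lay within 1.5-fold in 4 of 35 members and in 2526 of 12820 genes, a smaller share for members than for all genes. Library 1 of each group stood apart from the others. All 3 same-numbered pairs were above 0 in 12 members and below 0 in 5, beside 3508 and 3476 of the 12820 genes tested. The groups did not overlap in 3 members, each higher after YAP siRNA (Pola1, Pold1 and Rfc4), where 9.47% of all genes were so placed, and in 0 members lower, where it was 9.49%.

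**Figure D1:**
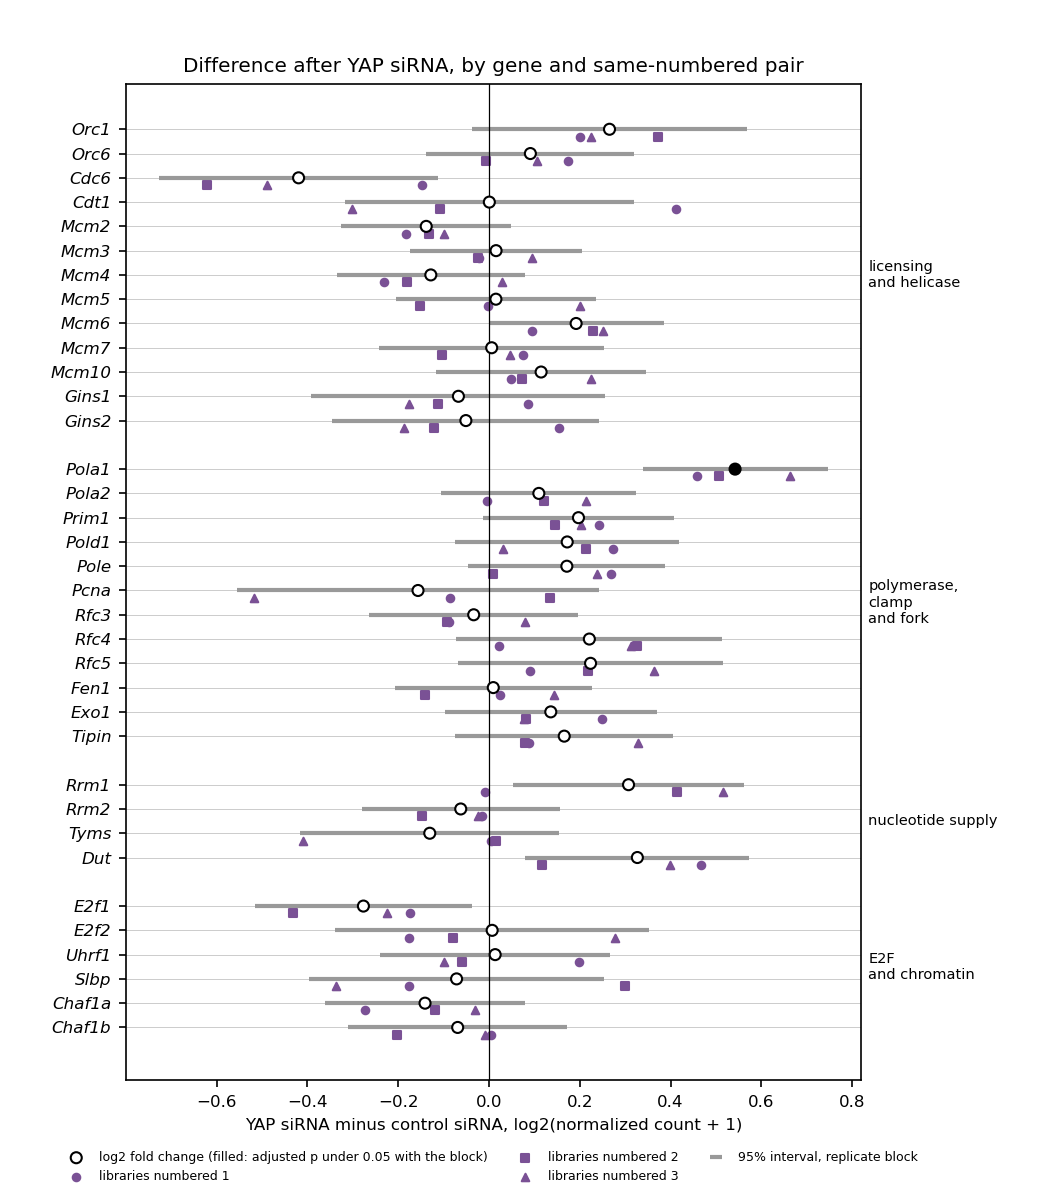
Log2 fold change of each of the 35 genes after YAP siRNA (x axis, difference in log2(normalized count + 1)), with the difference in each same-numbered pair and the 95% interval from limma with the replicate number as a block. Pola1, at 0.54, carries the filled point of a gene that passed, and 31 of the 35 lie within 0.3 of 0.

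Among the 13 licensing and helicase genes, 0 passed in either fit. Their median log2 fold change was 0.006, with 8 above 0 and 5 below. Cdc6, whose protein loads the helicase with the origin recognition complex, had 1945, 553 and 612 normalized counts in control replicates 1, 2 and 3, and 1757, 359 and 436 after YAP siRNA. Each treated library was below its same-numbered control, while library 1 of both groups lay far above the rest and the groups overlapped. The log2 fold change of Cdc6 was −0.42 (SE 0.134 with the block, 95% interval −0.73 to −0.11), and it did not pass (limma adjusted p = 0.0648 with and 0.913 without the block). Orc1, the large subunit of the origin recognition complex, went the other way, with 883, 319 and 336 in the control and 1015, 413 and 393 after YAP siRNA. It was above its control in all 3 pairs, by 0.27 on average (interval −0.04 to 0.57, limma adjusted p = 0.194 with the block). Orc6, a smaller subunit of that complex, had a log2 fold change of 0.09, with 1 pair marginally below 0.

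Cdt1, the partner of CDC6 in loading, had pairs that pointed in different directions: 1768, 1732 and 2095 in the control became 2353, 1607 and 1700 after YAP siRNA. The pair differences of Cdt1 were 0.41, −0.11 and −0.30, and their mean was near 0 (interval −0.32 to 0.32).

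The 6 subunits of the MCM ring had a median log2 fold change of 0.011, and each had a 95% interval with the block within 1.5-fold either way. Mcm6 was the highest of the 6, with 9284, 4980 and 4450 normalized counts in the control and 9920, 5834 and 5300 after YAP siRNA. It was higher in all 3 pairs, but library 1 of the control exceeded treated libraries 2 and 3, and its 0.19 missed the threshold (limma adjusted p = 0.147 with the block). Mcm2 was the lowest, with 10197, 5653 and 4980 in the control and 8979, 5160 and 4649 after YAP siRNA, a value of −0.14 (interval −0.33 to 0.05). Mcm2 was below its control in every pair. The other 4 lay between these, from −0.13 for Mcm4 to 0.02 for Mcm3 and Mcm5, with Mcm7 at 0.01. Mcm10, which helps to activate the loaded helicase, was at 0.11. The GINS subunits, which join the helicase at activation, were at −0.07 for Gins1 and −0.05 for Gins2, each above 0 in the pair numbered 1 and below 0 in the other pairs.

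Among the 12 polymerase, clamp and fork genes, 1 rose (Pola1) and 0 fell with the block, a share close to the 8.32% of all genes called higher. In limma without the block 0 of the 12 passed. Their median log2 fold change was 0.17, with 10 above 0 and 2 below, and 8 were above 0 in all 3 pairs, as were 3508 of the 12820 genes tested. This difference from the other roles was not tested. Pola1, the catalytic subunit of DNA polymerase alpha, had 3184, 3732 and 3033 normalized counts in control replicates 1, 2 and 3, and 4374, 5299 and 4800 after YAP siRNA. All treated libraries lay above all control libraries, and libraries numbered 1 did not stand apart for this gene. The means were 3316 ± 368 and 4824 ± 463 (SD, n = 3), so that the treated mean was 145% of the control. The log2 fold change of Pola1 was 0.54 (SE 0.0893 with the block, 95% interval 0.34 to 0.75, limma adjusted p = 0.0069), with pair differences of 0.46, 0.51 and 0.66. Without the block the SE was 0.142 and the limma adjusted p was 0.232. Of 15 alternatives without the block Pola1 passed in 2, DESeq2 (adjusted p = 0.0288) and limma without the libraries numbered 1. The exact permutation test, two-sided, gave p = 0.1 for Pola1, the smallest that 3 against 3 libraries can give. The blocked call of Pola1 was lost in limma without a mean-variance trend (adjusted p = 0.0921). It was also lost when the libraries numbered 2 were left out (limma adjusted p = 0.0792). Pola1 passed in 7 of 9 blocked fits, with the blocked fit given above counted among the 9.

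Pola2, the accessory subunit of the same polymerase, had 4077, 1949 and 1825 in the control and 4066, 2118 and 2116 after YAP siRNA, a log2 fold change of 0.11 (interval −0.10 to 0.32). Prim1, the primase that travels with them, was higher in all 3 pairs, by 0.20 (interval −0.01 to 0.41), and did not pass. The log2 ratio of Pola1 to Pola2 was 0.44 ± 0.70 in the control and 0.87 ± 0.67 after YAP siRNA (SD, n = 3), a difference of 0.43. The difference in this ratio was smaller than the spread within each group (exact permutation test, two-sided, p = 0.5). Within same-numbered libraries the ratio was higher after YAP siRNA in 3 of 3, for which an exact sign-flip test gave p = 0.25, the smallest it can give.

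Pold1, the catalytic subunit of polymerase delta, had the smallest spread for its level in the control, with 1127, 1100 and 1190 normalized counts, and had 1362, 1277 and 1215 after YAP siRNA. Its groups did not overlap, yet the value of 0.17 missed the threshold (limma adjusted p = 0.298 with the block). Rfc4, a clamp loader subunit, had 649, 631 and 588 in the control and 660, 791 and 731 after YAP siRNA, again without overlap and without a call (0.22, limma adjusted p = 0.26 with the block). Pole, the catalytic subunit of polymerase epsilon, was at 0.17, Rfc5 at 0.22 and Rfc3 at −0.03. Fen1, the nuclease that trims lagging strand fragments, was at 0.01, Exo1, an exonuclease of replication and repair, at 0.14, and Tipin, of the fork protection complex, at 0.17. None of these passed, and every treated group overlapped its control.

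**Figure D2:**
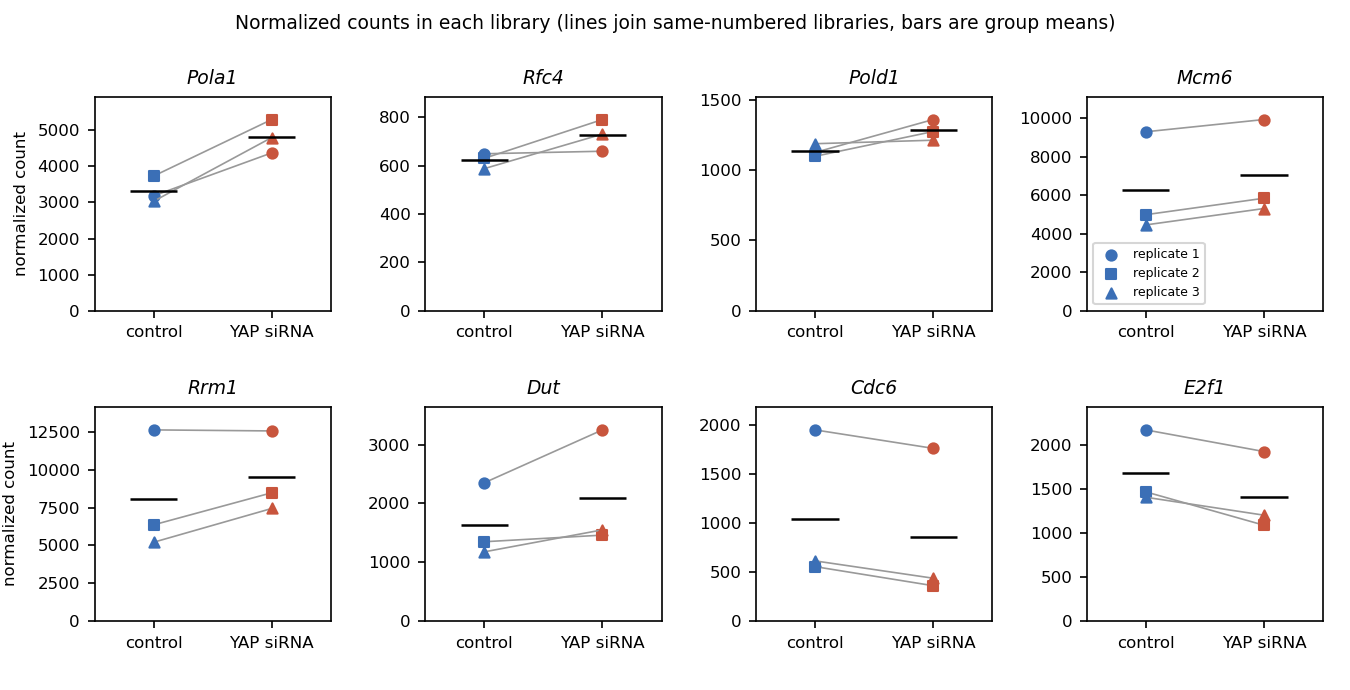
Normalized counts (y axis, linear, from 0) of 8 genes in each library, with lines joining same-numbered libraries and bars at group means. Pola1, Rfc4 and Pold1 show groups that do not overlap, while in Mcm6, Rrm1, Dut, Cdc6 and E2f1 library 1 of both groups sits above the others.

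Of the 4 nucleotide supply genes, 0 passed in either fit, and 2 had log2 fold changes above 0 and 2 below. Rrm1, the large subunit of ribonucleotide reductase, had 12634, 6356 and 5205 in the control and 12566, 8476 and 7439 after YAP siRNA. Pairs 2 and 3 were higher, by 0.42 and 0.51, while pair 1 was level, at −0.01. The mean of the pairs was 0.31 for Rrm1 (interval 0.05 to 0.56, limma adjusted p = 0.0902 with the block). Rrm2, the small subunit, whose level is known to peak in S phase, was at −0.06 (interval −0.28 to 0.16). The log2 ratio of Rrm1 to Rrm2 was 1.95 ± 0.23 in the control and 2.32 ± 0.45 after YAP siRNA (SD, n = 3), a difference of 0.37 that was larger than the control SD and smaller than the treated SD (exact permutation test, two-sided, p = 0.2). Within same-numbered libraries it was higher after YAP siRNA in 3 of 3, for which the exact sign-flip test gave p = 0.25. Adjusted over the 2 ratios tested (Benjamini-Hochberg), the exact p was 0.5 for Pola1 to Pola2 and 0.4 for Rrm1 to Rrm2.

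Dut, the dUTPase that keeps uracil out of DNA, had 2352, 1349 and 1177 in the control and 3252, 1461 and 1551 after YAP siRNA. It was higher in all 3 pairs, by 0.33 on average (interval 0.08 to 0.57, limma adjusted p = 0.0715 with the block). Tyms, thymidylate synthase, was at −0.13, with pair 3 at −0.41 and pairs 1 and 2 at 0.0043 and 0.015.

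Of the 6 E2F and chromatin genes, 0 passed and the median log2 fold change was −0.07. E2f1, an activator of G1/S transcription, had 2174, 1469 and 1408 in the control and 1928, 1090 and 1204 after YAP siRNA. All 3 pairs were below 0, but the treated library 1 exceeded control libraries 2 and 3. The log2 fold change of E2f1 was −0.28 (interval −0.52 to −0.04, limma adjusted p = 0.102 with the block). E2f2, a related activator, was at 0.01. Chaf1a and Chaf1b, subunits of the factor that deposits histones on new DNA, were at −0.14 and −0.07. Uhrf1, which helps to copy DNA methylation, was at 0.01, and Slbp, which binds histone mRNA, at −0.07 with pairs that disagreed in sign.

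Most of these genes were higher in replicate 1 of both groups than in the other libraries. The gap of replicate 1 over the mean of replicates 2 and 3 (log2) had a median of 0.94 in the control and 0.87 after YAP siRNA over the 35 members, beside −0.003 and −0.015 over all genes tested. It was above 0 in both groups in 30 members (85.7%, beside 39.9% of all genes), and replicate 1 was at least 2-fold higher in both groups in 11 members (31.4%, beside 6.66%). Pcna, the sliding clamp, had the widest gap, with 2190, 82.6 and 240 normalized counts in control replicates 1, 2 and 3, and 2064, 90.8 and 167 after YAP siRNA. The Pcna pair differences between the siRNA groups were −0.09, 0.13 and −0.52, with a mean of −0.16 (interval −0.55 to 0.24). Slbp had 3253, 450 and 690 in the control and 2879, 554 and 546 after YAP siRNA. Pola1, Pold1, Rfc4 and Gins2 had gaps near or below 0 in both groups.

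**Figure D3:**
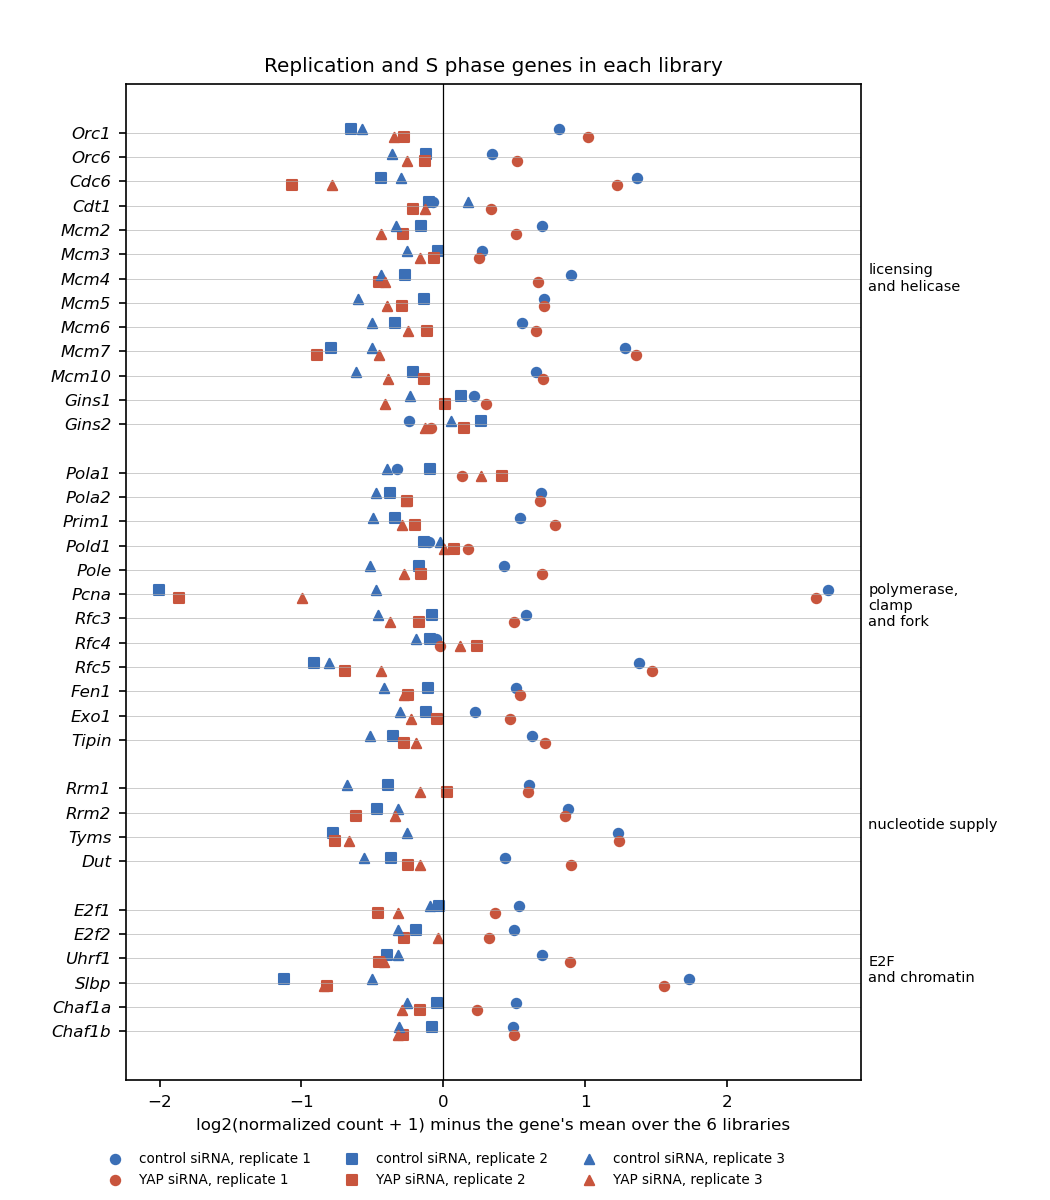
Level of each of the 35 genes in each of the 6 libraries (x axis, log2(normalized count + 1) minus the gene's mean over the 6 libraries), by role. Circles, the libraries numbered 1, lie to the right of squares and triangles for most genes, farthest for Pcna, while colours, the siRNA groups, are close together within a number.

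Several of these genes share 31-base stretches with annotated pseudogenes, and how reads from such stretches were counted is not given in the sources used here. Across the 35 members the gap of replicate 1, averaged over both groups, went with the share of a transcript's 31-base stretches that annotated pseudogenes also hold (Spearman's rho 0.74 across members, which share the same 6 libraries and are not independent). Over 11625 tested genes with a transcript rho was 0.33. In the 10 members with more than 3% shared (Orc1, Cdc6, Mcm4, Mcm7, Pcna, Rfc5, Rrm2, Tyms, Uhrf1 and Slbp), the gap ran from 1.18 to 4.00 with a median of 1.90. In the 19 members with 0% shared it ran from −0.25 to 1.03 with a median of 0.74, and in the remaining 6 from 0.52 to 1.06. Over all tested genes the median gap was 0.94 where more than 3% was shared (1525 genes) and −0.13 where none was (7436 genes). Members without shared sequence thus had a larger median gap than all genes without it, a difference that was not tested. The 3% boundary was chosen after seeing the values, and other properties went with the gap too. Across members rho was 0.39 for stretches shared with any other annotated gene, −0.10 for transcript length and −0.18 for GC content. Over all genes it was −0.10 for length and −0.34 for GC content, about as large as the 0.33 for pseudogenes. The part of any of these in the levels was not tested.

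**Figure D4:**
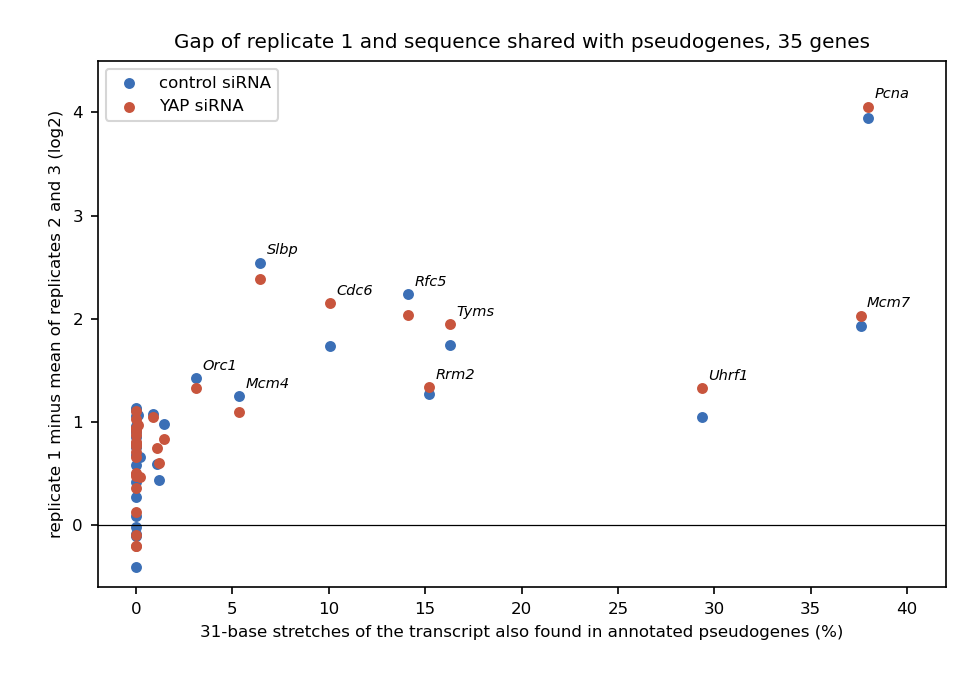
Gap of replicate 1 over the mean of replicates 2 and 3 (y axis, log2) for each of the 35 genes against the percentage of its 31-base stretches found in annotated pseudogenes (x axis), in control and YAP siRNA libraries. Pcna and Mcm7, with 38.0% and 37.6% shared, and Slbp, with 6.45%, are among the genes with the widest gaps.

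With both libraries numbered 1 left out, more members passed, against a larger background. Leaving out each numbered pair in turn was planned for the blocked fit, while the fit without the block was chosen after seeing the data. With the libraries numbered 2 or 3 left out instead, the blocked fit called 0 and 1 members. In the blocked fit on the 4 remaining libraries, 4 members were higher (Pola1, Rrm1, Rfc4 at adjusted p = 0.0433 and Mcm6 at 0.0173) and 2 were lower (Cdc6 at 0.001 and E2f1 at 0.0118), all by limma. Of 12861 genes tested there, 22% were called higher and 21.8% lower, so the members' counts lie below the share of all genes. Without the block, 2 members were higher (Pola1 at adjusted p = 0.0041 and Rrm1 at 0.0122) and 2 lower (Cdc6 at 0.0233 and E2f1 at 0.0494), where 15.3% of all genes were called higher and 16.7% lower. The log2 fold changes on these libraries were 0.58 for Pola1, 0.47 for Rrm1, −0.56 for Cdc6 and −0.33 for E2f1. These fits rest on 2 libraries a group and on variances borrowed from other genes.

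Levels per kilobase of transcript, which allow genes to be set beside each other, spanned a wide range in the control. The highest were Mcm3 at 2374 ± 441, Mcm2 at 2060 ± 842 and Rrm1 at 2018 ± 1000 normalized counts per kb (SD, n = 3), followed by Mcm4 at 1637 ± 895, Mcm5 at 1514 ± 718 and Mcm6 at 1432 ± 609. Neighbours in that order did not differ beyond their spread. Mcm7, at 451 ± 377, was below the other 5 ring subunits in every control library, and 37.6% of its stretches are shared with pseudogenes. The lowest member was E2f2 at 93.7 ± 30.5, then Orc1 at 170 ± 106, Exo1 at 178 ± 33.7 and Gins2 at 180 ± 31.4. These low ranks rest on the transcript lengths used, 7796 bases for Exo1 and 3900 for Gins2. That Gins2 transcript shares 70.5% of its 31-base stretches with 1 other annotated gene, so its rank may not reflect its expression. Orc1, Exo1 and Gins2 overlapped each other, and E2f2 lay below each of them in every control library. Pola1, at 620 ± 68.8, did not differ from E2f1, at 611 ± 155, beyond its spread, and both stood above Pold1, at 330 ± 13.3. Lengths are those of the longest protein-coding transcript in GENCODE M21, which may not be the annotation the authors counted on.

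Among 47 other replication genes, 6 rose and 0 fell with the block, beside 8.32% of all genes higher and 8.96% lower. Without the block limma called 0 of the 47, and DESeq2 called 1, where it called 330 genes higher and 399 lower in all. The median log2 fold change of the 47 was 0.12. Rfc1, the large subunit of the clamp loader, rose most, from 3457, 4336 and 3610 normalized counts in control replicates 1, 2 and 3 to 7826, 7481 and 6715 after YAP siRNA, without overlap. The change in Rfc1 was 0.95 (SE 0.0997 with the block, limma adjusted p = 0.0016 with and 0.13 without the block), while the smaller subunits Rfc2, Rfc3, Rfc4 and Rfc5 lay between −0.03 and 0.26 and did not pass. The highest of these was Rfc2, named after its value was seen, at 0.26 (limma adjusted p = 0.114 with the block). The others that rose were Mcm8, an MCM relative outside the ring, by 0.62, Orc3, an origin recognition subunit, by 0.54, Samhd1, which breaks down dNTPs, by 0.46, Dbf4, the activator of the CDC7 kinase, by 0.42, and Top1, which relaxes supercoils, by 0.37. In the blocked fit 0 of these 47 genes passed without a mean-variance trend, 1 (Rfc1) without the libraries numbered 2, 2 without those numbered 3 and 13 without those numbered 1. E2F matches were found in 11 of the 39 with a promoter window (28.2%).

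Of 24 regulators of the G1/S step, 8 rose and 3 fell with the block, where 8.32% of all genes were higher and 8.96% lower. Without the block limma called 0 of the 24, and DESeq2 called 2, where it called 330 genes higher and 399 lower in all. Ccnd1, cyclin D1, fell from 31551, 40638 and 45035 normalized counts to 25875, 19439 and 18899, and Cdkn1a, the inhibitor p21, fell from 3363, 3713 and 4853 to 1689, 2183 and 2301. Ccne1, cyclin E1, had 768, 641 and 562 in the control and 470, 261 and 223 after YAP siRNA. In all 3 genes the groups did not overlap, and the log2 fold changes were −0.87, −0.95 and −1.11. Cdk4, the kinase partner of D cyclins, rose by 0.84, from 13302, 5055 and 6014 to 15588, 11608 and 12939, and its groups overlapped, with control library 1 above treated libraries 2 and 3. The 11 calls became 0 without a mean-variance trend, 2 without the libraries numbered 2 (Ccne1 and Cdkn1a) and 5 without those numbered 3. The difference between the members and these lists was not tested.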

How the data were processed

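RNA was sequenced in 6 libraries of SC4 cells, 3 per group. The deposited values are a signal unit, gene counts that the authors divided by a size factor per library. TopHat2 2.0.9, HTSeq 0.6.1, DESeq 1.14.0 and build mm9 were used, per the submitters' processing notes. Not given in the sources used here are the annotation, the strand setting and how reads with several matches were treated. Every value was a whole multiple of 1 read within 0.01 reads (100% of values), with 1 read worth 0.461 to 1.52 normalized counts. Libraries of the same group differed by more than sampling noise (chi-square per degree of freedom 8.04 to 267).

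The test was limma 3.58.1 (R 4.3.3) on log2(value + 1) (mean-variance trend, two-sided, Benjamini-Hochberg over all genes with a mean of at least 10). Alternatives were the replicate number as a block, pseudocounts of 0.5 and 10, filters (none, 50), one total, no trend, recovered reads in edgeR 4.0.16 and in DESeq2 1.42.0, and leaving out libraries. Deviations from group means correlated at 0.788, 0.705 and 0.532 for the same numbers across groups, all above 0.1, and same-numbered libraries were treated as pairs. This pairing comes from the data, not a label. Unlike numbers passed the same bar: control replicate 3 with YAP siRNA replicate 2 (0.516), and control replicate 2 with YAP siRNA replicate 3 (0.552). The values set the libraries numbered 1 apart, but cannot settle how those numbered 2 and 3 pair.

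Members and lists were chosen with earlier results of these data known. All members are named, and from the other lists up to 6, 4 and 3 genes with the smallest p among those that passed. Promoters come from RefSeq (GRCm38.p6), and transcript sequences from GENCODE M21, another assembly than mm9. All 35 members and 11625 of 12820 tested genes matched a transcript. The 31-base stretches, per-kilobase levels and motif searches were computed from these. Protein sequences were not used here. Some cell type markers are not reported here.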

Additional observations from a re-analysis of the deposited data

How the results depend on the processing

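Counts are given as higher and lower genes among all tested, then members higher and lower, then calls in either direction among other replication genes, G1/S regulators, and G2 and mitosis genes. Without the block limma called 0 in each. With the replicate block they were 1067 and 1149, 1 and 0, 6, 11, 14. With the block but no mean-variance trend they were 12 and 18, 0 and 0, 0, 0, 0. With the block and a pair left out, they were 2823 and 2808, 4 and 2, 13, 15, 20 without the libraries numbered 1, 136 and 192, 0 and 0, 1, 2, 3 without those numbered 2, and 511 and 575, 1 and 0, 2, 5, 6 without those numbered 3. edgeR without the block gave 0 in each, and with the replicate block 1190 and 1289, 1 and 0, 6, 12, 16. DESeq2 gave 330 and 399, 1 and 0, 1, 2, 0, and with the block 1182 and 1308, 1 and 0, 6, 12, 15. Settings chosen after seeing the data gave, with the block, 1072 and 1163, 1 and 0, 6, 11, 14 with a pseudocount of 10, 1226 and 1027, 1 and 0, 6, 11, 16 with libraries rescaled to one total, and, without the block and without the libraries numbered 1, 1967 and 2150, 2 and 2, 7, 12, 17.

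Leaving out a replicate 1 library without the block leaves 1 group without its replicate 1, while leaving out any other library does not. With 1 library left out, all genes called then ranged from 0 to 192 higher and 0 to 304 lower (the upper values without control replicate 1), members called stayed at 0, and the other lists gave 0 to 1, 0 to 2 and 0 to 2. The members' median ranged from −0.21 without YAP siRNA replicate 1 to 0.36 without control replicate 1, and in the blocked fit it was 0.061 without the libraries numbered 2 and 0.058 without those numbered 3. The ranges that crossed 0 were Orc1 −0.18 to 0.74, Orc6 −0.15 to 0.29, Cdc6 −1.14 to 0.16, Cdt1 −0.17 to 0.11, Mcm2 −0.43 to 0.18, Mcm3 −0.11 to 0.16, Mcm4 −0.49 to 0.29, Mcm5 −0.33 to 0.37, Mcm6 −0.086 to 0.52, Mcm7 −0.67 to 0.65, Mcm10 −0.21 to 0.47, Gins1 −0.23 to 0.12, Gins2 −0.19 to 0.069, Pola2 −0.20 to 0.48, Prim1 −0.15 to 0.52, Pole −0.13 to 0.43, Pcna −1.51 to 1.16, Rfc3 −0.29 to 0.25, Rfc5 −0.46 to 0.97, Fen1 −0.26 to 0.27, Exo1 −0.065 to 0.28, Tipin −0.15 to 0.52, Rrm2 −0.51 to 0.36, Tyms −0.78 to 0.45, Dut −0.043 to 0.63, E2f2 −0.15 to 0.26, Uhrf1 −0.43 to 0.36, Slbp −0.87 to 0.78, Chaf1a −0.30 to 0.080 and Chaf1b −0.34 to 0.16. Pola1 kept its sign in all, between 0.47 and 0.63 over 15 alternatives without the block and 0.48 and 0.58 over 9 with it.

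Members near 0 changed sign under a few other settings. Without the libraries numbered 1, with or without the block, Cdt1 was −0.20, Mcm7 −0.029 and Uhrf1 −0.079. Without those numbered 3, with the block, Mcm3 was −0.024, Mcm5 −0.077, Mcm7 −0.014, Gins2 0.017, Pcna 0.025, Fen1 −0.058, Tyms 0.0096, E2f2 −0.13 and Slbp 0.062. Cdt1 was −0.0020 in DESeq2 with the block, and E2f2 was −0.014 in edgeR and −0.015 in DESeq2. None of these members passed in all libraries. Over the 49 named genes and 24 alternatives, 945 values kept their direction and side of the threshold, 142 came to pass and 89 changed sign. Of the 14 genes named here that passed with the block, apart from Yap1, 0 did so without a mean-variance trend, 14 without the libraries numbered 1, 5 without those numbered 2 (Rfc1, Ccne1, Cdkn1a, Cenpf and Kif11) and 10 without those numbered 3 (lost were Dbf4, Mcm8, Top1 and Samhd1). In all libraries, the block changed no member's call in limma other than that of Pola1. The cause of these differences was not tested. The fewest reads of a member in any library were 90, for Pcna.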

Other observations

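Genes of G2 and mitosis stood beside the replication genes with larger values. Of 26 such genes, 14 rose and 0 fell with the block in limma, where 8.32% of all genes were higher and 8.96% lower, and 0 passed without it, with a median log2 fold change of 0.40 and 25 of 26 above 0. Kif11, the motor that separates spindle poles, had 6895, 2607 and 2475 normalized counts in control replicates 1, 2 and 3, and 9776, 4188 and 4370 after YAP siRNA. Its log2 fold change was 0.67 (limma adjusted p = 0.0042 with the block). Nusap1, a spindle protein, rose by 0.87, and Cenpf, a kinetochore protein, by 0.95, from 11202, 7153 and 5202 to 15357, 14966 and 13144. The kinase genes Aurka, at 0.06, and Plk1, at 0.08, did not pass. The 14 calls became 0 without a mean-variance trend, 3 without the libraries numbered 2, Kif11 and Cenpf among them, and 6 without those numbered 3. In 23 of these genes with a promoter window, the CHR element was found in 73.9%, the CCAAT box in 87.0% and an E2F match in 4.35%. The difference between this list and the 35 replication genes was not tested.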
